A study of Mus musculus with 90 samples.

Results

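The oxidative phosphorylation genes encoded in the nucleus were described across 15 tissues of female mice in estrus and in diestrus. They were chosen by symbol alone, as every row whose name starts with Ndufa, Ndufb, Ndufc, Ndufs, Ndufv, Uqcr, Atp5 or Cox4 to Cox8, together with Sdha, Sdhb, Sdhc and Sdhd. This rule gave 96 of the 20414 genes in the deposited table. They are 39 genes of complex I, 8 assembly factors of complex I (Ndufaf1 to Ndufaf8), 4 of complex II, 8 of complex III, 20 of complex IV and 17 of complex V, which is ATP synthase. Cyc1, a subunit of complex III, and Atpif1, the inhibitor of ATP synthase, do not carry such a name and fall outside the rule.

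The mice were wild-type C57BL/6 females, 10 weeks old by the sample labels (C57BL/6J in the study's methods), and were assigned to estrus or diestrus from a stained smear of vaginal secretion. Neither group received a treatment, and all animals came from one batch. Heart, skeletal muscle, brown adipose tissue (BAT), white adipose tissue (WAT), aorta, vein, cerebrum, hypothalamus, stomach, duodenum, liver, spleen, kidney, uterus and ovary were each sequenced in 3 libraries per phase, 90 libraries in all. The replicates of a phase were separate mice by the study's methods, and the tissues were dissected from the same mice, so that libraries of different tissues share animals. The labels do not say which vein, which fat depot or which muscle was taken, or which libraries came from the same animal. Expression was given as FPKM, which counts fragments relative to transcript length and to the size of the library, so that these are levels per length and genes can be compared.

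The respiratory chain passes electrons from NADH through complex I, or from succinate through complex II, to coenzyme Q, and then through complex III and cytochrome c to complex IV, which reduces oxygen. Complexes I, III and IV pump protons out of the mitochondrial matrix, and complex V uses their return to make ATP. In brown adipocytes the uncoupling protein Ucp1 lets protons return without ATP synthesis, and heart and skeletal muscle use their own isoforms of several small subunits of complex IV. The core subunits encoded by mitochondrial DNA were not analysed here.

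In 11 tissues with a marker list of their own the summed level of that list was the highest of all tissues, no such check was made for aorta, vein, cerebrum and hypothalamus, and no 2 libraries held identical values. Summed FPKM over all genes ranged from 353706 to 623534 per library, and the table holds no read totals, so the depth of single libraries was not computed here. The third estrus library of BAT stands apart. It lists 12048 genes at 0, and its smallest value above 0 is 0.11 FPKM, where the other 89 libraries reach 0.01. Of the members averaging 1 FPKM or more over all libraries, those listed at 0 in that library are Ndufa4l2, Ndufaf6, Cox6b2 and Cox4i2. The phase results in BAT are therefore given with and without that library. The first estrus library of aorta also stands apart, as described below.

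Averaged over all libraries, 92 of the 96 genes reached 1 FPKM, and 88 did so in every tissue. The 4 below it were Ndufa11b at 0.0457, Ndufb4b at 0.166, Cox7b2 at 0.0438 and Cox8c at 0.0016 FPKM. Ndufb4, Ndufb4b and Ndufb4c have nearly identical sequences, so how the reads were split among them is uncertain.

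**Figure D1:**
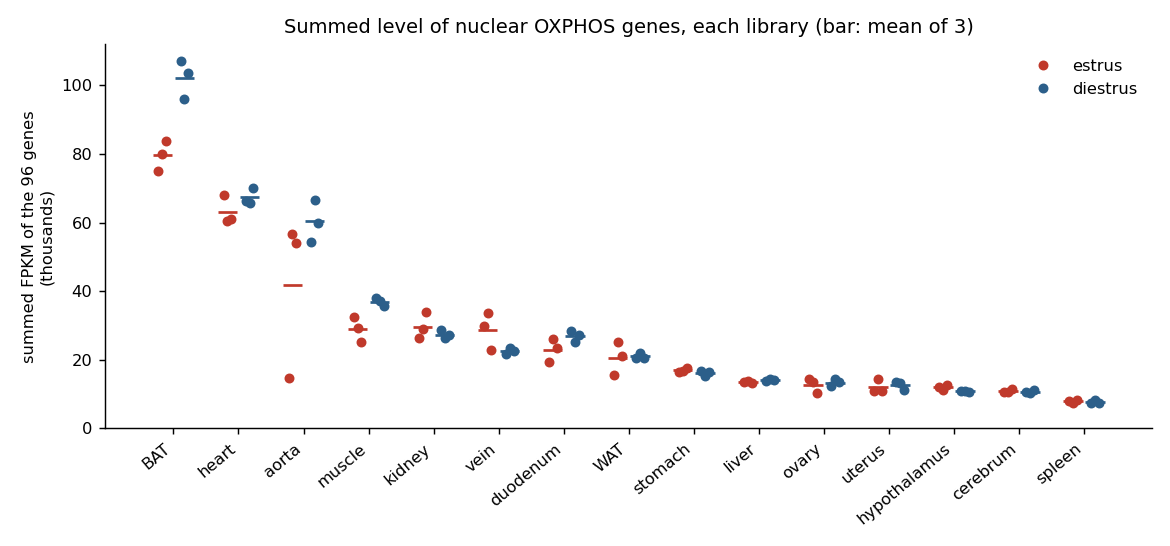
Summed FPKM of the 96 oxidative phosphorylation genes in each of the 90 libraries, by tissue and phase. Points are libraries, 3 per phase, bars are their means, and the tissues run from BAT, with a mean of 90902, down to spleen, with a mean of 7823.

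The genes took up the largest share of the transcriptome in BAT and heart. Their summed level was 90902 ± 13202 FPKM in BAT (SD, n = 6 libraries) and 65230 ± 3840 in heart, which were 15.7% and 12.4% of the summed FPKM of all genes. Aorta followed with 51116 ± 18374, muscle with 32932 ± 4936 and kidney with 28526. Spleen had the lowest sum at 7823 ± 441, or 1.51% of the total, and BAT exceeded it 11.6 times. The ranges of BAT and heart did not overlap, whereas aorta ran from 14818 to 66678 and overlapped both heart and muscle. This order is that of the FPKM scale. Factors that scale libraries to a common reference by the median of ratios ran from 0.506 to 0.597 in muscle and from 0.983 to 1.14 in aorta. The sums were not rescaled by these factors, so the places of muscle and aorta on that scale are not given. In bulk tissue, fewer cells of a type and less RNA per cell cannot be told apart.

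The place of aorta in this order moved with markers of other cell types in its libraries. Ucp1, the marker of brown adipocytes, stood at a mean of 1809 FPKM in aorta, against 4416 in BAT, 395 in vein and 0.0083 in heart. In the first estrus library of aorta the members summed to 14818 FPKM, Ucp1 was 205 and Myh11, the myosin of smooth muscle, was 1669. In the other 5 aorta libraries Ucp1 lay between 1019 and 2896, Myh11 between 191 and 316, and the members summed to between 54156 and 66678. The atrial and ventricular myosin Myh6 ran from 37.3 to 717 FPKM in aorta. Their part in the level of aorta was not tested.

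The leading members of complexes I, II and III were higher in BAT than in heart. In complex I the most abundant genes were the accessory subunits Ndufb8, Ndufb9 and Ndufa3. Ndufb8 averaged 1845 ± 264 FPKM in BAT, 977 ± 90.8 in heart, 501 ± 65.5 in muscle and 77.5 ± 4.90 in spleen (SD, n = 6). Ndufb9 followed with 1591 ± 371, 1039 ± 77.5, 601 ± 99.8 and 80.8 ± 11.2 in the same tissues, and Ndufa3 with 1261 ± 414, 953 ± 69.0, 515 ± 87.2 and 194 ± 10.2. The assembly factors of complex I, which help build the complex and are not part of it, were far less abundant. Ndufaf8 averaged 61.4 ± 23.7 FPKM in BAT and 27.8 ± 2.87 in spleen, Ndufaf2 39.9 ± 7.56 and 10.4 ± 1.36, and Ndufaf1 43.8 ± 16.1 and 10.1 ± 0.478.

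In complex II, the iron-sulphur subunit Sdhb stood at 1062 ± 113 FPKM in BAT, 811 ± 51.1 in heart and 55.6 ± 4.03 in spleen. Sdhc, a membrane anchor, stood at 653 ± 45.7, 550 ± 34.1 and 58.7 ± 1.67, and Sdha, the flavoprotein, at 648 ± 142, 472 ± 30.9 and 61.8 ± 2.29. In complex III the small subunits Uqcr11, Uqcrb and Uqcr10 reached 2152 ± 568, 1916 ± 321 and 1690 ± 467 FPKM in BAT, against 1186 ± 105, 925 ± 53.3 and 688 ± 79.2 in heart. In complex IV, Cox6b1 stood at 3279 ± 377 FPKM in BAT and 1572 ± 114 in heart. The 2 other leading members of complex IV, Cox6a1 and Cox8a, are described with their isoforms below.

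As a sum, complex V was not higher in BAT than in heart. Atp5b, the catalytic beta subunit and the most abundant member over all tissues, averaged 3837 ± 135 FPKM in BAT and 3370 ± 125 in heart. Atp5a1, the alpha subunit, averaged 1463 ± 215 in BAT and 1850 ± 86.6 in heart, and Atp5h, a subunit of the stalk, 1667 ± 264 and 1757 ± 183. The summed level in BAT was 1.43 times that in heart for complex I, 1.37 times for complex II, 1.80 times for complex III, 1.73 times for complex IV and 0.951 times for complex V. Among single genes, 8 of 8 in complex III and 14 of 18 in complex IV had the higher mean in BAT, but 9 of 17 in complex V, where the ratio of means ran from 0.0223 to 1.86. Within complex III the ratio moved with the length of the coding sequence. It ran from 1.29 to 1.37 in the long genes Uqcrc1, Uqcrc2 and Uqcrfs1 and from 1.81 to 2.46 in the shorter ones. In complex V short genes lay on both sides, with Atp5e (156 bases) at 1.86 and Atp5j (324 bases) at 0.368. The part of length in these ratios was not tested.

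**Figure D2:**
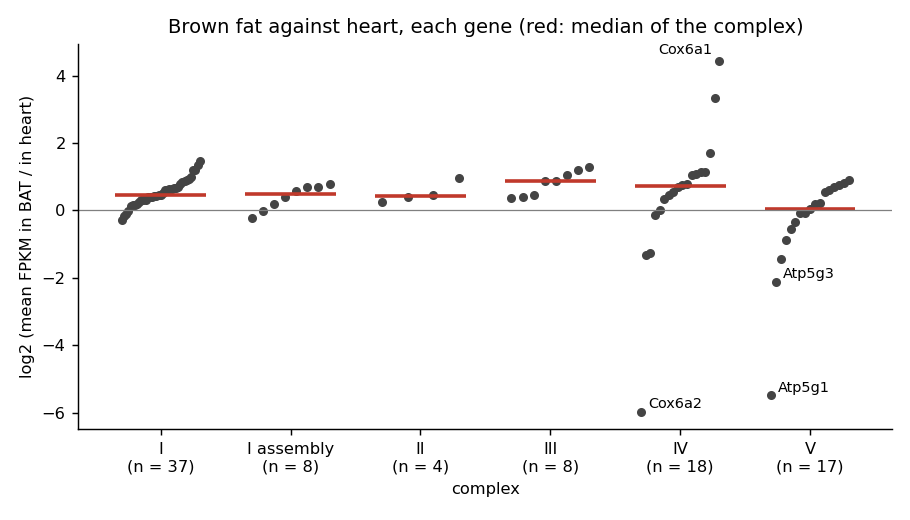
Ratio of the mean FPKM in BAT to that in heart, as log2, for the 92 members averaging 1 FPKM or more, by complex. Each point is a gene and each bar a median, whose ratio is 1.82 in complex III, 1.67 in complex IV and 1.03 in complex V, with Cox6a2 at 0.0159 and Atp5g1 at 0.0223 lowest and Cox6a1 at 21.4 highest.

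The sum of complex V relative to complexes I to IV was lowest in BAT, aorta and vein. It was 0.287 ± 0.0125 in BAT (SD, n = 6), 0.322 ± 0.0245 in aorta, 0.342 ± 0.017 in vein and 0.380 ± 0.0154 in WAT. The other 11 tissues had means from 0.419 in cerebrum to 0.504 in duodenum. As a ratio of the median genes it was 1.40 in BAT, 1.41 in aorta and 1.57 in vein, followed by hypothalamus at 1.94, with cerebrum and WAT at 2.01. No library of BAT exceeded 0.303, and no library of heart fell below 0.472.

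Subunit c held the widest gap between heart and BAT within complex V. It forms the rotating ring of ATP synthase, and Atp5g1, Atp5g2 and Atp5g3 encode the same mature protein with different targeting sequences. Atp5g1 stood at 2060 ± 152 FPKM in heart, 877 ± 165 in muscle and 547 ± 107 in kidney, and BAT was the lowest of the 15 tissues at 45.9 ± 30.05. Atp5g3 stood at 1116 ± 58.2 in heart and 258 ± 72.1 in BAT. Atp5g2 did not separate them, at 495 ± 36.7 and 509 ± 55.6.

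The 3 genes summed to 3672 ± 235 FPKM in heart and 813 ± 139 in BAT. Relative to Atp5b the sum was 1.09 in heart, 1.04 in muscle and 0.213 in BAT, with no library of BAT above 0.278. It was highest in uterus, from 1.55 to 2.88, and in aorta it ran from 0.286 to 1.19, where the highest value is that of the first estrus library. Atp5g1 made up 56.1% of the sum in heart, 53.3% in muscle, 14.9% in WAT and 5.52% in BAT. Neighbours in the lower part of the order of Atp5g1, vein at 114 ± 13.3, WAT at 113 ± 10.5 and spleen at 104 ± 12.1, did not differ beyond their spread.

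**Figure D3:**
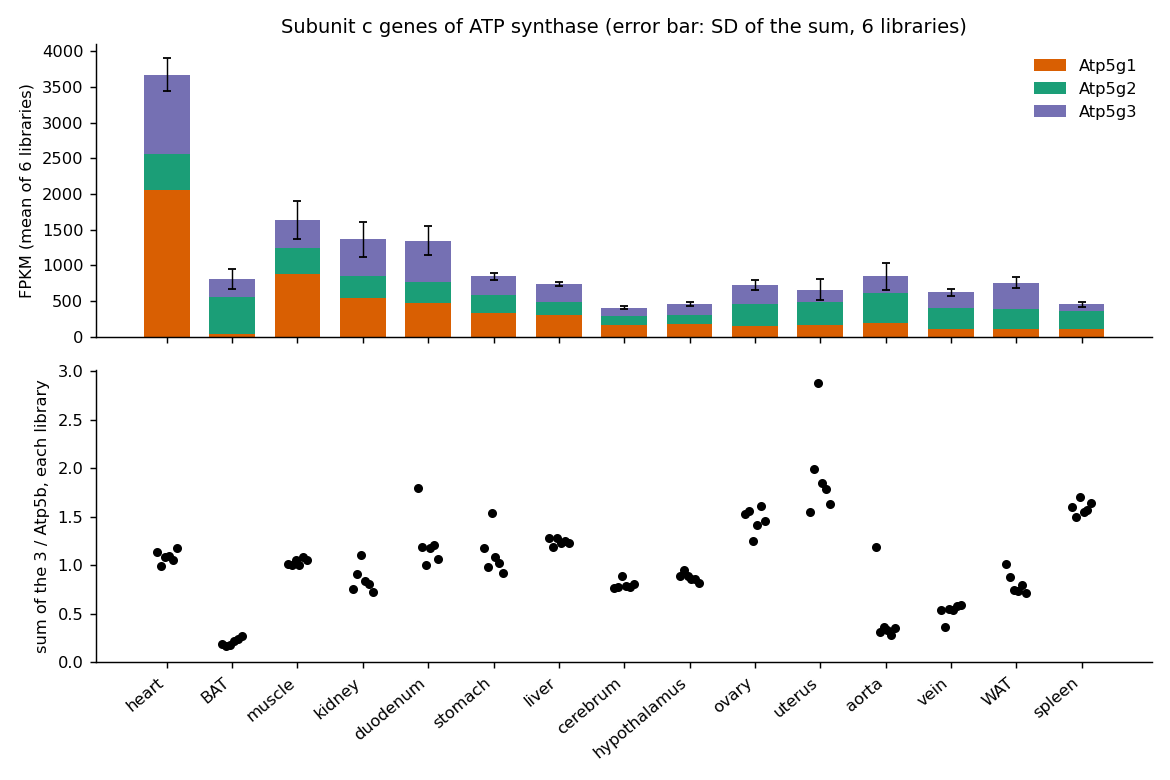
Mean FPKM of Atp5g1, Atp5g2 and Atp5g3, the 3 genes of subunit c of ATP synthase, in each tissue, stacked, with the SD of their sum over 6 libraries as error bar, and below it the sum relative to Atp5b in each library. The sum is 3672 in heart and 813 in BAT, and BAT has the lowest ratio to Atp5b.

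The isoform pairs of complex IV did not share one pattern across tissues. Cox6a2, the heart and muscle form of subunit VIa, was the main form in heart and muscle and a minor one in the other 13 tissues. Cox6a2 stood at 4108 ± 255 FPKM in heart, 1872 ± 260 in muscle, 265 ± 126 in aorta and 65.2 ± 94.8 in BAT, and at 9.46 or less in the other 11 tissues. Its partner Cox6a1 was highest in BAT at 4902 ± 553, followed by aorta at 2375 ± 930, and lowest in heart at 229 ± 16.8 and muscle at 57.1 ± 13.2. Cox6a2 thus made up 94.7% of the pair in heart, 97.1% in muscle, 9.45% in aorta and 1.30% in BAT.

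In BAT, Cox6a2 followed skeletal muscle actin from library to library. It measured 59.0, 48.3 and 20.6 FPKM in estrus, against 9.35, 0.80 and 253 in diestrus, where Acta1 measured 441, 475 and 357, and 98.3, 9.77 and 2159. In aorta the library with the lowest Cox6a2, at 28.5, was also the one with the lowest Myh6, at 37.3. The part of muscle transcripts in the level of Cox6a2 in BAT and aorta was not tested.

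Cox7a1, the muscle form of subunit VIIa, was high in both heart and BAT. It averaged 1712 ± 195 FPKM in heart, 1558 ± 429 in BAT, 837 ± 391 in aorta, 520 ± 113 in muscle, 173 ± 75.1 in vein, 144 ± 53.3 in duodenum and 65.6 ± 15.7 in stomach. Heart and BAT did not differ beyond their spread, and neither did vein and duodenum. Its share of the sum with Cox7a2, the widely expressed form, was 86.3% in heart, 81.2% in muscle, 72.0% in BAT, 69.8% in aorta, 50.9% in vein, 40.8% in duodenum and 34.8% in stomach. Cox7a2 itself was 601 ± 149 in BAT, 270 ± 17.9 in heart and 119 ± 20.2 in muscle.

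Cox7a2l, which encodes a related protein, was the most even of the family. It stood at 222 ± 23.0 FPKM in BAT, 220 ± 11.3 in heart, 215 ± 78.1 in uterus and 169 ± 9.63 in spleen, and lowest at 74.6 ± 8.19 in liver.

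Cox8b, the muscle form of subunit VIII, was highest in BAT. It averaged 4347 ± 1005 FPKM there, 2221 ± 1038 in aorta, 1338 ± 133 in heart, 791 ± 115 in muscle, 709 ± 288 in vein and 101 ± 50.3 in WAT, and 5.23 or less in the other 9 tissues. Muscle and vein did not differ beyond their spread. BAT also had the highest level of the partner Cox8a, at 3502 ± 515, which was 349 ± 34.0 in heart and 72.5 ± 11.9 in muscle. Cox8b made up 91.6% of the pair in muscle, 79.3% in heart, 55.0% in BAT, 50.9% in aorta, 36.2% in vein and 7.17% in WAT, and under 1% elsewhere. BAT thus held both forms at a high level, where muscle held nearly all Cox8b.

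The third form, Cox8c, was listed at 0 in every tissue other than ovary, where it averaged 0.0233 FPKM.

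**Figure D4:**
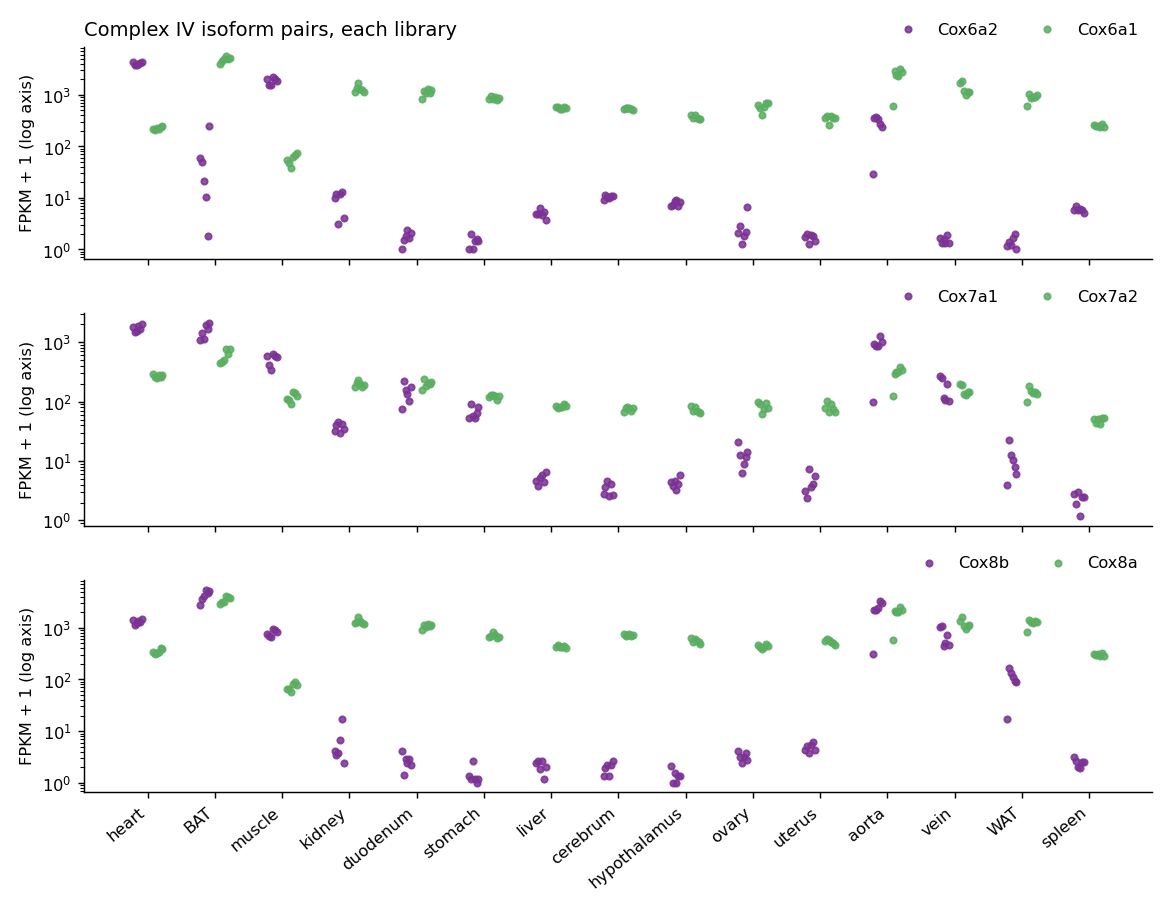
FPKM + 1 of the complex IV isoform pairs Cox6a2 and Cox6a1, Cox7a1 and Cox7a2, and Cox8b and Cox8a on log axes, with a point for each of the 6 libraries of a tissue. Cox6a2 lies above Cox6a1 in heart and muscle alone, while Cox7a1 and Cox8b reach 72.0% and 55.0% of their pairs in BAT.

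The remaining isoforms were minor in every tissue. Cox4i2, the form of subunit IV known from lung, was at most 2.34% of its sum with Cox4i1, in ovary, and highest in heart at 14.5 ± 1.15 FPKM, where Cox4i1 was 1887 ± 157. Cox6b2, known from testis, was at most 4.30% of its sum with Cox6b1 and highest in ovary at 13.9 ± 3.30 FPKM. Ndufa4l2, a relative of the complex IV subunit Ndufa4 that is induced by low oxygen in many cells, was at most 4.30% of its pair and highest in heart at 31.9 ± 2.88 FPKM, where Ndufa4 was 1703 ± 114.

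The promoters of 4 isoform genes are shown because Cox6a1 and Cox8a were among the most abundant genes in BAT and at their lowest in muscle, while Cox7a1 and Cox8b rose in muscle and BAT alike. Each is the 250 bases before the annotated start, 5′ to 3′ on the strand of the gene, from RefSeq on GRCm38.p6. Capitals mark matches to 6 motifs searched on both strands, namely NRF1 (the 10-base palindrome in capitals in Cox6a1), ETS (CCGGAAG, found in Cox6a1 as its reverse complement), YY1 (AAGATGGC), ERR (TCAAGGTCA), MEF2 (CTA and TAG with any 4 bases between them) and a muscle E-box (CAGCTG), none of which contains another. The window of Cox6a1 lies at chr5:115348959-115349208 on the minus strand, that of Cox7a1 at chr7:30183921-30184170 on the plus strand, that of Cox8a at chr19:7217617-7217866 on the minus strand and that of Cox8b at chr7:140900447-140900696 on the minus strand.
Cox6a1: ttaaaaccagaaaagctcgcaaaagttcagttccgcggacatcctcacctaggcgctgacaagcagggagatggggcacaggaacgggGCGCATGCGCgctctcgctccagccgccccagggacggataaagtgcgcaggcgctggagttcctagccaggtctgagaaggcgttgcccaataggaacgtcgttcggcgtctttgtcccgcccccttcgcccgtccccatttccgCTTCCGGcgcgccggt
Cox7a1: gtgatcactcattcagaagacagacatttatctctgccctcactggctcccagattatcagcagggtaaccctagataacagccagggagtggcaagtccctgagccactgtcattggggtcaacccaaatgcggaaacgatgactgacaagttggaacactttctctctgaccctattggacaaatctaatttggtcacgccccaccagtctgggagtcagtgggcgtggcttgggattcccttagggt
Cox8a: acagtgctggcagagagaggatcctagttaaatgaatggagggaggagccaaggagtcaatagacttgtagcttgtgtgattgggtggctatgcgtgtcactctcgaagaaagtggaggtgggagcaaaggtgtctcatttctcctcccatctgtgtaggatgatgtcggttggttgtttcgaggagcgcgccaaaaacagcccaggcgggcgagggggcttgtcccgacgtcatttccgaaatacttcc
Cox8b: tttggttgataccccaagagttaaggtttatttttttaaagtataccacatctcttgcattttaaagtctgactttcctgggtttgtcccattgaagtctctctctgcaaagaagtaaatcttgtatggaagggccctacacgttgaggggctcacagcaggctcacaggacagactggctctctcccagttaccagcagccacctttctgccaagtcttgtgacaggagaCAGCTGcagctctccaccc

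The windows differed in their count of CG dinucleotides, which was 26 for Cox6a1, 11 for Cox8a, 4 for Cox7a1 and 1 for Cox8b, and 14 for Cox7a2, which is not shown. The median was 15 over the 77 members with a RefSeq promoter and 11 over 15969 genes of the table. The NRF1 motif was present in 5 members (6.49%) and in 1.32% of all promoters, ETS in 14 (18.2%) and 11.1%, and the E-box in 6 (7.79%) and 14.5%. YY1 occurred in 1 member (1.30%) and 1.86% of all promoters, ERR in 1 member and 0.388%, and MEF2 in 1 member and 3.49%. These are matches of letters within the window and do not show binding.

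Across tissue means, most members rose and fell together. The Pearson correlation of a member with the mean of the others, over 15 tissue means of log2(FPKM + 1), had a median of 0.96 over the 92 members, and 72 members reached 0.9. This is a description, since the tissue means share the same libraries and scale. Among the highest values were those of the complex I subunits Ndufa8, Ndufv2, Ndufab1 and Ndufs3, at 0.99 in each case.

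The lowest values were those of Cox6b2 at 0.06, Atp5g1 at 0.19, Cox8a at 0.32, Cox6a1 at 0.33 and the assembly factor Ndufaf7 at 0.37. For Cox6a1 and Cox8a the departure lay in the striated muscles and BAT, since over the 12 tissues without heart, BAT and muscle their correlations were 0.95 and 0.91. In each tissue order, 72 of the 92 members were highest in BAT, 17 in heart, 2 in muscle (Ndufaf5 and Ndufaf6) and 1 in ovary (Cox6b2). The lowest tissue was spleen for 62 members, cerebrum for 14 and liver for 7. All genes summed to between 353706 and 369334 FPKM in the libraries of cerebrum and to between 501459 and 536906 in those of spleen. The lowest tissue was not counted again with libraries rescaled to a common total.

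Among genes outside the rule, those with the tissue profile most like the mean of the members were Cyc1 at 0.98, Samm50 at 0.98 and Mrpl55 at 0.97, followed by Idh3b, Oxnad1, Immt, Cycs, Dld, Mtres1 and Fh1, the last at 0.96. Cyc1 and Cycs are cytochromes of the chain, Idh3b, Dld and Fh1 belong to the tricarboxylic acid cycle, and Samm50 and Immt shape the mitochondrial membranes.

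Tissue differences were tested in limma, with libraries taken as independent, over all 90 libraries and 15226 genes averaging 1 FPKM or more, on the log2(FPKM + 1) scale, and called at an adjusted p of at most 0.05 with a log2 difference of at least 1. In heart against the mean of the other 14 tissues, 78 of the 92 members rose and 2 fell, where 9.69% of all genes tested rose and 15.2% fell. The median log2 difference was 1.64 over the members and -0.37 over all genes. The largest rises were those of Cox6a2 (9.02 ± 0.36, SE, adjusted p = 1.23e-32), Cox8b (6.10), Cox7a1 (5.69), Atp5g1 (3.35) and Ndufa4l2 (2.28). The 2 that fell were the partner isoforms Cox6a1 (-1.58) and Cox8a (-1.02).

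In BAT against the mean of the other tissues, 80 members rose and 1 fell, against 8.65% and 20.9% of all genes. The median was 2.14 over the members and -0.49 over all genes. Cox8b rose by 7.89 ± 0.25 (SE, adjusted p = 8.82e-37), Cox7a1 by 5.50, Cox6a1 by 3.14, Ndufb8 by 2.80 and Uqcrq by 2.78. Atp5g1 was the one member that fell, by 2.70. BAT against WAT gave the same counts, 80 higher and 1 lower in BAT, where 5.72% of all genes were higher and 12.6% lower. There the leading members were Cox7a1 (7.38), Cox8b (5.65), Cox6a2 (4.23), the complex III core protein Uqcrc1 (2.83) and Cox5a (2.82), and Atp5g1 was again the member that fell (-1.46). Cox6a2 in BAT followed Acta1, as described above.

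In skeletal muscle the largest differences were those of isoforms, and the count for the group depended on the scale. Against the mean of the other tissues, 17 members rose and 3 fell, against 6.45% and 35.5% of all genes, and the median was 0.64 over the members and -0.76 over all genes. Cox6a2 (7.79 ± 0.36, SE, adjusted p = 1.25e-29), Cox8b (5.28), Cox7a1 (3.83), Atp5g1 (2.01) and the assembly factor Ndufaf5 (1.42) rose most, and Cox6a1 (-3.74), Cox8a (-3.44) and Cox6b2 (-2.05) fell. With libraries scaled by the median of ratios to a common reference, 76 members rose and the same number, 3, fell, and the median over all genes was -0.26.

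Heart exceeded muscle. The summed level of the members was 1.98 times higher, and 36 members were called higher in heart and 0 lower, where 17.4% of all genes were higher and 4.06% lower. The median was 0.90 over the members and 0.32 over all genes. Cox8a (2.26 ± 0.14, SE, adjusted p = 4.05e-23), Cox4i2 (2.12), Cox6a1 (2.02), Cox7a1 (1.74) and Cox6b2 (1.71) led. With median-of-ratios scaling 7 members were higher in heart and 1 lower, so that most of these calls depend on the scale.

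Genes of the same pathway outside the rule were counted by list, beside the shares of all genes that rose, 9.69% in heart, 8.65% in BAT and 6.45% in muscle. In heart, 14 of 14 genes of the tricarboxylic acid cycle rose (median 1.70), as did 4 of 4 electron carriers (1.90), 5 of 6 nucleotide and phosphate carriers (1.48) and 8 of 11 genes of coenzyme Q synthesis, of which 1 fell. In BAT, 13 of 14 genes of the cycle rose (2.49), 4 of 4 electron carriers (2.72) and 6 of 11 genes of coenzyme Q synthesis, but 1 of 6 nucleotide and phosphate carriers (0.67). In muscle 3 of 14 genes of the cycle and 1 of 4 electron carriers rose, while among the carriers of nucleotides and phosphate 3 of 6 rose and 1 fell.

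Assembly factors were listed by complex. In heart, calls upward were made for 2 of 12 further factors of complex I (median 0.50), 0 of 4 of complex II (0.60), 3 of 6 of complex III (0.96), 4 of 20 of complex IV (0.36) and 1 of 4 of complex V (0.92). In BAT they were made for 5 of 12 (0.80), 1 of 4 (0.75), 4 of 6 (1.24), 9 of 20 (0.94) and 2 of 4 (1.06). None of these lists had a member called downward in heart or BAT.

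The nucleotide carriers divided by isoform. Slc25a4, which exchanges ADP and ATP across the inner membrane, averaged 4135 FPKM in heart and 2522 in muscle and 7.45 in liver, whereas Slc25a5, the same carrier of other tissues, averaged 859 in duodenum, 685 in kidney and 25.1 in muscle. Slc25a4 rose by 4.55 ± 0.13 (SE) in heart and 3.78 in muscle, and by 0.94 in BAT.

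The regulators of mitochondrial gene expression were mixed, with 5 of 15 called higher in heart and 5 higher and 1 lower in BAT. Ppargc1a, a coactivator of these genes, averaged 27.2 FPKM in heart, 26.7 in BAT and 21.8 in kidney and 0.34 in spleen, and rose in both heart (2.22 ± 0.16, SE) and BAT (1.92). Its partner Esrra averaged 128 in duodenum, 106 in BAT and 77.6 in heart. Tfam, which packs and transcribes mitochondrial DNA, was highest in spleen at 26.6 FPKM and lay between 9.62 and 18.2 elsewhere.

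The phases were compared within each tissue by limma on its 6 libraries. In none of the 15 tissues did a member pass an adjusted p of 0.05, which 0.0187% of all genes passed in muscle, 0.00798% in spleen and 0% in the other tissues. In one limma fit of all libraries, the tissues share an estimate of the spread. In that fit 65 members passed, 28 lower and 1 higher in estrus in BAT, 28 lower in aorta, 5 lower in duodenum and 3 lower in uterus. The share of all genes that passed in that fit is not given here, so these counts cannot be set against it. The fit includes the first estrus library of aorta, which stands apart. At an unadjusted p under 0.05 the members divided by tissue, with 77 of 91 lower in estrus in muscle, 57 of 92 lower and 4 higher in BAT, 50 of 91 higher in hypothalamus, 17 of 91 lower in duodenum, 11 of 91 higher in vein, and 7 of 92 lower in heart, with 0 in the opposite direction outside BAT. Over all genes tested, the shares lower and higher were 18% and 2.85% in muscle, 7.45% and 5.39% in BAT, 5.58% and 7.63% in hypothalamus, 11.2% and 2.29% in duodenum, 8.63% and 3.43% in vein and 2.09% and 4.01% in heart.

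In each of the other 9 tissues at most 3 members had an unadjusted p under 0.05. The counts lower and higher in estrus were 1 and 2 in stomach (6.9% and 0.481% of all genes), 2 and 1 in liver (3.09% and 2.5%), 0 and 2 in kidney (1.36% and 1.51%), 0 and 2 in WAT (1.15% and 4.83%) and 0 and 1 in spleen (1.69% and 1.82%). They were 2 and 0 in ovary (2.71% and 3.25%), 1 and 0 in uterus (2.28% and 1.45%), 1 and 0 in cerebrum (1.21% and 1.79%) and 2 and 0 in aorta (2.53% and 0.574%).

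**Figure D5:**
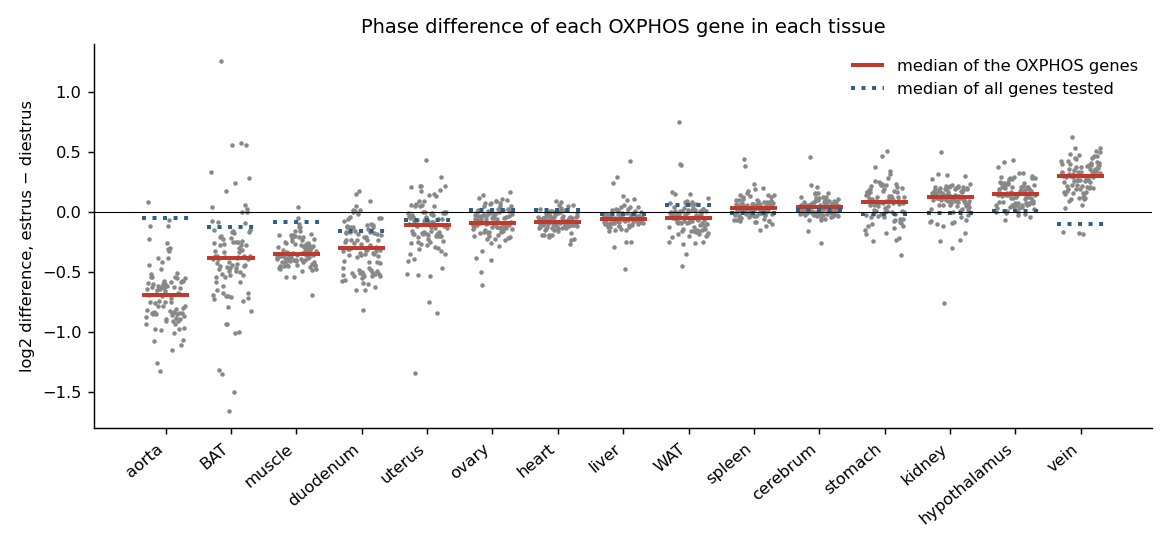
Log2 difference between estrus and diestrus of each member in each tissue, with the median of the members and the median of all genes tested. The median of the members is -0.69 in aorta, -0.38 in BAT and -0.35 in muscle, and 0.15 in hypothalamus and 0.30 in vein.

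In muscle nearly every member was lower in estrus, without overlap of the phases. The members summed to 32337, 29301 and 25293 FPKM in the 3 estrus libraries and to 37974, 37139 and 35549 in the 3 diestrus libraries, so that estrus stood at 78.6% of diestrus and every estrus library below every diestrus library. Single members separated in the same way for 76 of 91, where 21.9% of all genes separated downward, and 0 members separated upward, against 4.27%. By complex these were 32 of 37 in complex I, 4 of 4 in complex II, 7 of 8 in complex III, 14 of 17 in complex IV, 17 of 17 in complex V and 2 of 8 assembly factors. The median log2 difference was -0.35 over the members and -0.08 over all genes.

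The smallest p in muscle was that of Atp5g3, a gene of subunit c. The estrus libraries held 364, 336 and 308 FPKM and the diestrus libraries 456, 489 and 457, a log2 difference of -0.48 ± 0.081 (SE, adjusted p = 0.092). Ndufv1, the flavoprotein that receives electrons from NADH, measured 151, 128 and 127 against 177, 196 and 186 (-0.46, adjusted p = 0.0938). Both genes were lower in every estrus library than in any diestrus library.

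Cox8a measured 65.3, 64.9 and 56.7 FPKM in estrus, against 82.4, 87.2 and 78.8 in diestrus (-0.41, adjusted p = 0.0938). The widest difference was in Sdhb, at 407, 318 and 256 against 537, 515 and 503 FPKM (-0.69), where the estrus libraries were themselves spread. Without the first estrus library, 58 members passed the adjusted p of 0.05 in limma, all lower in estrus, among 1126 of 10653 genes. No member passed when any other single library was left out. The first estrus library had the highest sum of slow-fibre markers in estrus, as described next, so leaving it out also changes that sum.

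Markers of slow fibres moved with the phases in muscle. The 6 marker genes of slow fibres summed to 904, 31.5 and 34.2 FPKM in estrus, against 3110, 981 and 939 in diestrus, and all 6 were lower in estrus at an unadjusted p under 0.05, with a median log2 difference of -4.03. Myh7, the slow myosin, measured 69.4, 0.59 and 0.19 against 247, 73.7 and 55.7 FPKM. Within each phase the library with the highest slow-fibre sum also had the highest member sum. These were the first estrus library, with a member sum of 32337, and the first diestrus library, with 37974. The first estrus library had a slow-fibre sum close to those of diestrus libraries 2 and 3 and a member sum below all 3 diestrus libraries. The part of fibre type in the lower members was not tested.

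Other genes of the pathway were lower in muscle in estrus too. This was so at an unadjusted p under 0.05 for 13 of 14 genes of the tricarboxylic acid cycle (median -0.31), 4 of 4 electron carriers (-0.46), 5 of 6 nucleotide and phosphate carriers (-0.22) and 6 of 11 genes of coenzyme Q synthesis (-0.34). None passed the adjusted p. Many genes outside these lists were lower in muscle too, and the share of all genes lower at that p is given above.

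In BAT most members were also lower in estrus. The members summed to 74943, 79973 and 83838 FPKM in estrus, against 107032, 96042 and 103582 in diestrus, or 77.9%, again without overlap. The summed FPKM of all genes was itself lower in estrus without overlap. It was 527491, 549066 and 553433 in estrus, against 616560, 595449 and 616903 in diestrus, so part of the difference in the sums is one of library totals. The median difference with a common total was smaller and is given in the section on processing. Single members separated downward in 62 of 92 and upward in 5, where 18.1% and 12% of all genes did. By complex, those separated downward were 28 of 37 in complex I, 1 of 4 in complex II, 7 of 8 in complex III, 12 of 18 in complex IV, 12 of 17 in complex V and 2 of 8 assembly factors. The median log2 difference was -0.38 over the members and -0.12 over all genes.

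The members with the smallest p in BAT were small subunits. Uqcrq of complex III measured 495, 545 and 578 FPKM in estrus, against 958, 899.5 and 1009.7 in diestrus (-0.83 ± 0.092, SE, adjusted p = 0.18). Ndufb7 of complex I measured 455, 468 and 373 against 886, 779 and 918 (-0.996), and Uqcr10 of complex III 1339, 1322 and 1170 against 2159, 1921 and 2225 (-0.72). In all 3 the estrus libraries lay well under the diestrus libraries.

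The 5 members that were higher in estrus without overlap, named here after their values were seen, were Ndufs1, Sdha, Ndufaf1, Atp5a1 and Uqcrc2. Ndufs1, the largest subunit of complex I, measured 253, 223 and 281 FPKM in estrus, against 179, 174 and 153 in diestrus (0.58). Sdha measured 749, 744 and 821 against 543, 559 and 469 (0.56). Ndufaf1 (0.56), Atp5a1 (0.33) and Uqcrc2 (0.28) followed.

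The direction in BAT moved with the length of the coding sequence. The coding sequences of the members that were higher are 2181 bases long in Ndufs1, 1992 in Sdha, 1659 in Atp5a1, 1359 in Uqcrc2 and 990 in Ndufaf1, whereas those of the leading lower members are 411 bases in Ndufb7, 246 in Uqcrq and 192 in Uqcr10. The 67 members in BAT under 600 bases had a median log2 difference of -0.45 and the 24 longer ones one of -0.09. Among genes outside the group the medians were -0.32 under 600 bases, where 32.7% separated downward, and -0.03 at 2000 bases or more, where 13.1% did. The members are short as a group, with a median of 423 bases over 93 of them, against 1287 over the other genes. The part of length in the result was not tested.

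In muscle the members did not divide by length, with medians of -0.35 under 600 bases and -0.36 above, and other short genes had a median of -0.10. The split by coding length was chosen after the values were seen.

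Without the third estrus library of BAT, the one with many genes at 0, the difference in BAT was as large. The members had a median of -0.39, against -0.02 over all genes, 72 of 92 separated downward and 5 upward, where 26.5% and 22.9% of all genes did, and the smallest adjusted p was 0.0511 in limma. The summed Brown adipocyte markers overlapped between the phases, at 6775 to 8306 FPKM in estrus, against 6783 to 8321 in diestrus. That sum averaged 7599 FPKM, and Ucp1 alone averaged 4416 and overlapped too. Cidea, another gene of brown adipocytes, did not overlap. It measured 1883, 2287 and 2430 FPKM in estrus, against 2797, 2496 and 2521 in diestrus. The other markers are not given singly here, and the part of brown adipocyte content was not tested. Of the genes of the tricarboxylic acid cycle, 12 of 14 had higher means in estrus in BAT, 5 of them at an unadjusted p under 0.05 in limma (median 0.18). The share of all genes higher in BAT at that p is given above, and the share with a higher mean is not given here. The cycle genes were not split by coding length. The part of length in their difference from the subunits was not tested.

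In hypothalamus the members were slightly higher in estrus. Separation upward was found for 45 of 91 and downward for 0, where 9.96% and 9.64% of all genes separated, and the median was 0.15 over the members and 0.01 over all genes. Atp5e, the epsilon subunit of ATP synthase, measured 69.2, 70.8 and 72.1 FPKM in estrus, against 59.8, 54.9 and 48.9 in diestrus (0.37 ± 0.069, SE, adjusted p = 0.226). Cox7c of complex IV measured 333, 308 and 337 against 258, 272 and 277 (0.28), and Ndufa4l2 3.80, 3.42 and 3.39 against 2.62, 2.07 and 2.40 (0.43). Each was higher in every estrus library than in any diestrus library.

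By complex the members separated upward in hypothalamus were 19 of 37 in complex I, 2 of 4 in complex II, 4 of 8 in complex III, 10 of 17 in complex IV, 9 of 17 in complex V and 1 of 8 assembly factors. Coding length moved with this result as well, since members under 600 bases had a median of 0.16 and longer ones 0.07, and other short genes separated upward in 20.9% of cases, against 4.45% of those of 2000 bases or more. Its part was not tested. With libraries rescaled to a common FPKM total, 14 members in place of 50 were higher at an unadjusted p under 0.05, and the median was 0.08.

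In vein 30 of 91 members separated upward and 0 downward, against 5.28% and 12.9% of all genes, with medians of 0.30 and -0.10. Atp5pb, a stalk subunit of ATP synthase, measured 172, 224 and 172 FPKM in estrus, against 135, 138 and 147 in diestrus (0.42, adjusted p = 0.412). Ndufs3 of complex I measured 224, 263 and 183 against 165, 162 and 159 (0.44), and Uqcrq 207, 224 and 145 against 114, 144 and 134 (0.54). The third estrus library lay closest to diestrus in Ndufs3 and Uqcrq. The summed members overlapped, at 29815, 33655 and 22838 against 21625, 23392 and 22566, as did the summed levels of the Brown adipocyte markers, at 1545, 1486 and 782 against 554, 1036 and 780. All 7 of those markers had higher means in estrus and 3 of them an unadjusted p under 0.05. Their part in the result was not tested.

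In aorta the median was -0.69 over the members and -0.05 over all genes, and 29 of 92 members separated downward and 0 upward, against 9.54% and 2.39% of all genes. Without the first estrus library, which had little Ucp1, the median was -0.13 over the members and -0.10 over all genes. Ndufa4l2 separated in all libraries, at 11.3, 13.2 and 12.9 FPKM in estrus against 18.6, 18.6 and 19.8 in diestrus (-0.57), followed by Cox6b2 (-0.69) and Ndufaf8 (-0.30), each with an adjusted p of 0.933.

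In duodenum 41 of 91 members separated downward and 0 upward, against 22.1% and 4.51% of all genes, with medians of -0.30 and -0.16. The assembly factors Ndufaf1 (7.01, 5.51 and 8.34 FPKM in estrus against 14.3, 12.5 and 11.9 in diestrus, -0.82) and Ndufaf3 (-0.59) led, followed by Ndufb4c (-0.60), each with an adjusted p of 0.368. Duodenum differed from BAT in its relation to length, in that the longer members had the lower median, -0.48 against -0.22. With median-of-ratios scaling the median of the members was -0.06 and 1 member was lower at an unadjusted p under 0.05.

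In heart, with the second highest level of these genes, the phases differed little. The median was -0.08 over the members and 0.02 over all genes, and 8 of 92 members separated downward and 0 upward, against 3.84% and 7.91% of all genes. Ndufs8 of complex I, with the smallest p, measured 256, 236 and 256 FPKM in estrus, against 288, 297 and 294 in diestrus (-0.23, adjusted p = 0.792), followed by Ndufs5 (-0.27) and Cox6c (-0.21).

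In the reproductive tract few members separated. In uterus 3 did in each direction, and the clearest was Cox4i2, at 0.52, 1.78 and 0.91 FPKM in estrus, against 4.36, 2.41 and 6.14 in diestrus (-1.34 ± 0.41, SE, adjusted p = 0.897), followed by Sdha (-0.47) and Cox7b (0.22). In ovary 7 separated downward and 0 upward, led also by Cox4i2, at 7.64, 7.83 and 6.42 against 8.49, 13.7 and 10.5 FPKM (-0.50), with Atp5g3 (-0.38) and Uqcrc1 (-0.21). The shares over all genes were 4.67% downward and 3.24% upward in uterus and 5.58% downward and 8.13% upward in ovary. Cox4i2 was thus lower in estrus in both tissues without overlap, at low levels.

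The other 6 tissues gave the smallest counts. Separation upward and downward was found for 2 and 12 members in liver (4.48% and 6.84% of all genes), 9 and 2 in stomach (1.64% and 12%), 5 and 3 in kidney (4.25% and 3.73%), 4 and 1 in cerebrum (4.92% and 2.88%), 2 and 0 in WAT (9.25% and 2.74%) and 2 and 2 in spleen (3.09% and 5.7%). Among the members without overlap, those with the smallest p were Ndufaf4 (-0.48), Ndufaf6 (-0.25) and Atp5l (-0.16) in liver, Ndufs4 (-0.23), Ndufb3 (0.34) and Ndufa11 (0.25) in stomach, and Cox6b2 (0.50), Ndufv3 (0.30) and Ndufs1 (-0.23) in kidney. In cerebrum they were Ndufaf4 (-0.26), Ndufa6 (0.16) and Ndufa8 (0.11), in WAT Cox7a2l (0.39) and Atp5g2 (0.17), and in spleen Ndufa8 (0.23), Ndufs5 (-0.12) and Uqcrb (0.09).

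Whether the phase difference itself differed between tissues was tested by the interaction of tissue and phase over all 90 libraries. The adjusted p was at most 0.05 for 4 of the 92 members, Ndufaf8, Ndufa13, Ndufv3 and Ndufa1, where 3.88% of all genes tested passed. The share among the members was therefore close to that among all genes.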

How the data were processed

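RNA of 15 tissues from mice in estrus or diestrus was sequenced on BGISEQ-500, with 3 libraries per tissue and phase. The authors filtered reads with SOAPnuke, aligned them with Bowtie2 2.2.5 to GRCm38.p5 transcripts, estimated abundance with RSEM 1.2.8 and deposited FPKM for 20414 genes, without counts. Groups and replicate numbers came from the sample labels, and the study's methods describe the 3 replicates of a phase as separate mice, each dissected into the 15 tissues. The labels give an age of 10 weeks and the study's methods a younger one.

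Symbols were looked up through the Entrez numbers of RefSeq (GRCm38.p6), where 20265 genes had one and 149 none. Genes averaging 1 FPKM or more were tested as log2(FPKM + 1) in limma 3.58.1 (R 4.3.3) with an intensity trend and Benjamini-Hochberg adjustment over all genes tested. This scale understates changes of low genes. The phases were tested within each tissue, and tissues in one fit of 30 group means over 90 libraries, which takes libraries of 1 mouse as independent. The study's own test needs counts, which the table does not hold, so limma took its place. Phases with 3 libraries each were called separated where they did not overlap, and an exact permutation test of 3 against 3 cannot go below 0.1. The limma steps were tested on simulated data. Other computations used Python 3.11.15, pandas 2.3.3, numpy 2.4.6 and scipy 1.17.1, with matplotlib 3.10.9 for plots. Coding lengths are the longest of each gene in GENCODE vM21, and promoters are those of RefSeq on GRCm38.p6.

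Genes were named by rule: the isoform families, the 3 most abundant members of each complex, up to 3 members per tissue with the smallest p among those without overlap of the phases, the 5 most and 5 least like the other members, the 5 largest called differences in each direction per contrast, the 10 outside genes with the most similar profile, and members under 1 FPKM. One item that this rule names is not reported here. The members and gene lists were chosen with earlier results of these data known. As alternatives, another pseudocount, no filter, other scales, a joint fit of the 90 libraries, a replicate block and the removal of single libraries were tried.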

Additional observations from a re-analysis of the deposited data

Results flagged for a closer look

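The phase difference of 4 members differed between tissues in the interaction test of limma over all 90 libraries, where 3.88% of all genes tested passed, a share close to that of the members. For the assembly factor Ndufaf8 the adjusted p was 0.00473, with a log2 difference between estrus and diestrus from -1.004 in BAT to 0.33 in hypothalamus. Ndufa13, a subunit of the membrane arm, had an adjusted p of 0.0196 and ran from -0.93 in BAT to 0.22 in vein. For Ndufv3, next to the NADH site, it was 0.0355, from -0.63 in aorta to 0.33 in vein, and for Ndufa1 it was 0.0361, from -0.94 in BAT to 0.45 in vein. The number of members that passed was 1 with a common total or with median-of-ratios scaling, 0 when replicate 3 of every group was left out, and 7 when the third estrus library of BAT alone was.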

How the results depend on the processing

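The tissue contrasts of heart (80 members called), BAT (81) and BAT against WAT (81) stayed within 1.5 times their count in all alternatives run, whereas muscle rose from 20 to 79 calls and heart against muscle fell from 36 to 8 with median-of-ratios scaling. Leaving out 1 replicate gave 79 to 80 calls in heart, 81 to 85 in BAT, 15 to 25 in muscle, 33 to 38 in heart against muscle and 80 to 83 in BAT against WAT. Between phases, 0 members passed in the separate fits and 65 in one fit of all libraries, of which 29 in BAT, 28 in aorta, 5 in duodenum and 3 in uterus. The share of all genes that passed in that joint fit is not given here, so the 65 members cannot be set against it. Without the first estrus library of muscle 58 passed, and 0 without any other library. The interaction called 4 members, 1 with a common total, 1 with median-of-ratios scaling, 7 without the third estrus library of BAT, and 0 to 7 with replicates left out.

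The median log2 difference between phases was -0.21 in BAT with a common total and -0.52 with median-of-ratios scaling, which gave -0.22 in muscle and -0.059 in duodenum. A common total gave 0.012 in stomach and 0.077 in hypothalamus. In uterus the sign of the median turned with median-of-ratios scaling (0.0034), and in spleen with a common total (-0.0063). With single libraries left out the medians ran from -0.43 to -0.32 in BAT, -0.43 to -0.25 in muscle, -0.98 to -0.13 in aorta, -0.35 to -0.19 in duodenum, -0.13 to -0.05 in heart, 0.11 to 0.20 in hypothalamus, 0.20 to 0.45 in vein, 0.023 to 0.19 in kidney, 0.041 to 0.14 in stomach, 0.01 to 0.07 in cerebrum, -0.06 to -0.04 in liver, -0.26 to -0.0002 in uterus, -0.16 to 0.065 in ovary, -0.19 to 0.13 in WAT and -0.0032 to 0.08 in spleen.

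The median likeness of 0.96 was 0.95 by Spearman correlation, 0.94 without heart, BAT and muscle, and 0.96 with a common total. Of 90 isoform ratios, 36 moved by more than the spread between libraries with a pseudocount of 0.1, all of low isoforms, and none changed sign. Same-numbered libraries of the phases had correlated deviations from -0.52 to 0.44, so the numbers do not pair them. With a replicate block, which for the contrasts was the mouse taken from phase and number, 0 members passed between phases and the contrast counts were 80, 81, 20, 36 and 81. Deviations of same-numbered libraries correlated from -0.06 to 0.21 between heart and muscle, and from -0.15 to 0.09 between BAT and WAT. Since the labels do not say which libraries share a mouse, these counts cannot show whether shared mice matter.

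The table gives no depth per library, and with 3 libraries per group a difference that missed the threshold is not shown to be absent. Values near 0 in the third estrus library of BAT say little.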
